A study of Brugia malayi with 68 samples.

Results

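The 150 most abundant male-restricted genes of Brugia malayi were examined, of 11590 genes in the count table. Brugia malayi is a filarial nematode that causes lymphatic filariasis, and its adults live as separate males and females. The genes were chosen by their measured levels in the untreated libraries. A gene counted as male-restricted where its mean in untreated males was at least 16 times the larger of its means in untreated females and untreated microfilariae plus 1, in CPM (reads of a gene over all counted reads of its library, scaled to a common library size). This held for 491 genes, and the 150 of them with the highest male mean were kept.

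Worms came from the peritoneal cavity of infected Mongolian gerbils, 1 or 7 days after treatment. The doses were 1 mg/kg for albendazole, 6 mg/kg for diethylcarbamazine and 0.2 mg/kg for ivermectin, and control hosts received no drug. Adult males, adult females and microfilariae (the larvae shed by females) gave 68 RNA libraries in 24 groups, with 3 libraries per group except for the day 7 microfilariae with 2. Control samples carry the label DMSO, but by the protocol their hosts were untreated, and they are called untreated here. All hosts carried patent infections, worm age and the number of worms per library were not given in the sources used here, and worms were taken as whole animals.

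Adult male filariae differ from the other stages above all in their germ line. The testis makes amoeboid sperm whose movement depends on the major sperm protein rather than on actin, and in nematodes transcription of sperm genes is switched on during spermatogenesis. Mated females store sperm, and their uterus holds embryos at every stage up to the microfilaria. The deposited identifiers are not paired with gene names here (0 of 11590 occur in the reference table of 11688 genes), so no member can be assigned to these functions and members are given by identifier. CPM is not divided by gene length, so an order of members by CPM is an order of read share, not of transcript number.

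In the untreated males that chose them, the members made up 1.29% of the listed genes and 6.39% ± 1.03 (SD, n = 6) of all counts. The other 341 male-restricted genes together held 2.54%. The counts were concentrated in few genes. The highest member, WBGene00220914, took 0.485% of all male counts alone, the 5 highest took 1.35% and the 50 highest 4.04%. Those 5 were WBGene00220914 at a mean of 4846 CPM, WBGene00223218 at 2883 CPM, WBGene00228108 at 2371 CPM, WBGene00223871 at 1915 CPM and WBGene00225654 at 1523 CPM. The median member stood at 274 CPM, and 20 members were among the 150 genes with the most counts in untreated males. Male-restricted genes are therefore only a minority of the most counted male genes.

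**Figure D1:**
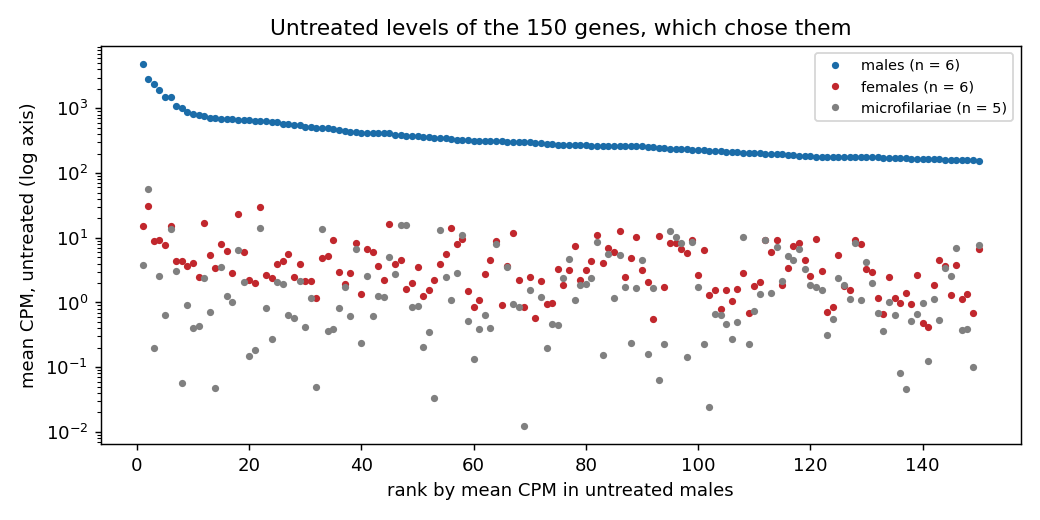
Mean CPM (log axis) of each of the 150 genes in 6 untreated male, 6 untreated female and 5 untreated microfilaria libraries, against rank by male mean. The male means run from 4846 CPM at rank 1 to 156 CPM at rank 150, and every female and microfilaria mean lies below 100 CPM.

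Both limits of the rule cut through continuous values, and the values that follow only describe how the members were selected. The last member by abundance, WBGene00235006, had a mean of 156.1 CPM in untreated males and was 18.01-fold above the other stages. The first gene left out, WBGene00230234, had 154.2 CPM and was 77.8-fold above them. The member nearest to the fold limit, WBGene00230056, was 16.8-fold higher, with 180 CPM in males and 9.74 CPM in females. WBGene00231319, at 311 CPM in males, was 14.1-fold higher and is no member. Over the members the median fold was 76.9. It was under 32 for 34 members and at least 100 for 46, and WBGene00220914 had a fold of 301. These folds depend on 1 female library, untreated day 7 replicate 2. Without it, an alternative chosen after seeing the data, all 150 members stayed past 16-fold, the median fold was 91.1, 69 members were at least 100-fold higher, and the fold of WBGene00220914 was 1024, since its female mean was 2.91 CPM in place of 15.1 CPM. In 22 members the microfilaria mean exceeded the female mean, so the fold was set by the larvae.

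Drug-treated libraries took no part in the choice. When the same fold was computed from the 51 drug-treated libraries, 149 of the 150 genes were again past 16-fold, and 145 were among the 150 most abundant male-restricted genes chosen there. The exception was WBGene00235006 at 14.8-fold. Across the 150 genes, mean CPM in treated males followed mean CPM in untreated males with a Spearman rho of 0.992, given as a description across genes, which are not independent replicates. By single drug and day, between 141 genes, in ivermectin on day 7, and 150 genes, in albendazole on day 1, were past 16-fold. In edgeR's quasi-likelihood test on the drug-treated libraries, 150 of 150 members were called higher in males than in females, against 41% of the 10876 genes tested, with a median log2 difference of 7.35. The same held for 150 of 150 members against microfilariae, where 43% of all genes were called higher and the members' median was 7.50. Members entered this fit through their male counts, so these counts describe the list and do not add to it. Bulk RNA cannot tell fewer cells of a type from less RNA per cell, which holds for every level given here.

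Per library, depth ran from 6037954 to 27464745 counts in males and from 2112032 to 37822431 in females, and the members' counts ran from 453940 to 1798644 per male library and from 1134 to 21745 per female library. The widest 95% Wilson interval of a member share was ± 0.0210 percentage points in males and ± 0.00313 in females. These intervals cover counting error only, since reads without molecular identifiers are not independent molecules. In 4 male libraries, 107 genes chosen by the mirror rule as female-restricted held 0.276 to 0.405% of counts, against 0.0296 to 0.0615% in the other 20. These were albendazole day 1 replicate 1, diethylcarbamazine day 1 replicate 1 and day 7 replicate 1, and ivermectin day 1 replicate 2.

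The members' share of male counts in treated males overlapped that in untreated males for every drug. In untreated males it was 7.19%, 4.52% and 6.33% on day 1 and 7.44%, 6.25% and 6.58% on day 7, in the order of replicates 1, 2 and 3. Replicate 2 of day 1 was the lowest of all 24 male libraries. Albendazole males held 6.41%, 6.48% and 6.41% on day 1 and 6.85%, 6.75% and 6.99% on day 7, the narrowest spread of the 4 treatments over both days.
Diethylcarbamazine males held 6.55%, 6.10% and 6.55% on day 1 and 6.41%, 6.29% and 7.46% on day 7. Ivermectin males held 6.68%, 7.52% and 5.86% on day 1 and 6.62%, 5.47% and 5.66% on day 7. The ivermectin range thus included the highest value of all males and, on day 7, the lowest outside the untreated group. Each drug group overlapped the untreated group of its day, though ivermectin on day 7 did so only through replicate 1. The means were 6.01% ± 1.37 in untreated and 6.43% ± 0.0373, 6.40% ± 0.258 and 6.68% ± 0.832 in albendazole, diethylcarbamazine and ivermectin males on day 1 (SD, n = 3 each). On day 7 they were 6.76% ± 0.617 untreated and 6.86% ± 0.123, 6.72% ± 0.642 and 5.92% ± 0.615 in the same order. The 4 libraries with female-restricted counts held member shares of 6.41%, 6.55%, 6.41% and 7.52%, within the range of the others except for the last, which was the highest.

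**Figure D2:**
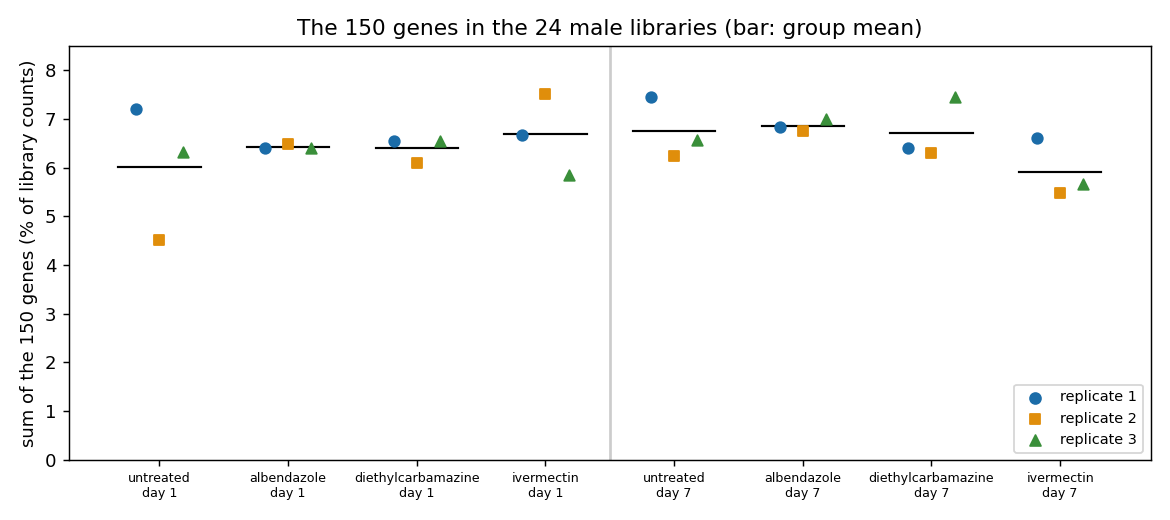
Sum of the 150 genes as a percent of counts in each of the 24 male libraries, by treatment and day, with replicate number by symbol and the group mean as a bar. Most libraries sit between 5.5 and 7.5%, and untreated day 1 replicate 2 stands lowest at 4.52%.

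No member was called in males for any drug on either day. In each of the 6 comparisons edgeR's quasi-likelihood test called 0 of 150 members and 0% of 10347 genes at an adjusted p under 0.05, and DESeq2 called 0 members. At an unadjusted p under 0.05, the members numbered 0, 2 and 8 in albendazole, diethylcarbamazine and ivermectin on day 1 and 0, 0 and 26 on day 7, when all genes numbered 268, 470, 929, 42, 86 and 578. The untreated libraries in these comparisons also chose the members. On day 1 the median log2 difference of the members from untreated males was 0.06 in albendazole, 0.03 in diethylcarbamazine and 0.11 in ivermectin, and 105, 94 and 111 of 150 members were above 0. Without untreated day 1 replicate 1, 9, 15 and 26 members were called, all higher in the treated males. The share of all genes called in those fits is not given here, so these counts are not read as particular to the members. The remaining untreated libraries then included replicate 2, which had the lowest share. Without replicate 2 instead, the medians turned to -0.11, -0.12 and -0.07. The sign on day 1 therefore rested on which untreated library was in the comparison.

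On day 7 the members were split evenly under albendazole, with 75 above and 75 below 0. Under diethylcarbamazine their median was -0.03, with 110 of 150 below 0 against 51.3% of all genes. That direction depended on the libraries, with 137 members below 0 without diethylcarbamazine replicate 3 but 126 above 0 without untreated replicate 1. Under ivermectin the median was -0.23, with 128 of 150 members below 0, while the median of all genes was 0.02 and 45.3% of all genes lay below 0. With each of the 6 libraries left out in turn, this median ran from -0.32 to -0.16, and the count of members called stayed at 0. The TMM factor of ivermectin day 7 replicate 3 was 0.787, against 0.931 to 1.13 in the other 23 male libraries, and its 100 most counted genes took 21.3% of counts, against 14.1 to 17.8%. Scaled by column totals alone, the ivermectin median was -0.35 and that of all genes -0.10. Under the same scaling the medians of albendazole and diethylcarbamazine on day 7 were 0.04 and 0.0022. A test that failed to call members does not show that their levels were the same. In data simulated for the ivermectin day 1 comparison, a 2-fold change was called in 66% of changed genes. The changed genes were drawn from all genes above a minimum mean count, not from the members.

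Untreated males of day 7 differed from those of day 1 by a median of 0.14 over the members, with 123 of 150 above 0. The test called 0 of 150 members and 0% of 10347 genes, with 13 members and 976 genes at an unadjusted p under 0.05 and 0 members called by DESeq2. Without untreated day 1 replicate 1 it called 29 members, all higher on day 7, and the share of all genes in that fit is likewise not given. Without replicate 2 the median was -0.04.

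Single members varied between males to unequal degrees. The SD of log2 CPM over the 24 male libraries had a median of 0.278 over members, and the highest library was 2.25 times the lowest in the median member. The steadiest member was WBGene00229594, with an SD of 0.146 and a range of 261.4 to 389.5 CPM. The most variable was WBGene00223402, with an SD of 1.18 and a range of 99.1 to 3229 CPM. Only 10 members exceeded an SD of 0.5. The median biological coefficient of variation, edgeR's estimate of the spread beyond counting noise within groups, was 0.169 for the members, 0.157 for all 10347 genes tested in males and 0.147 for the 1523 of them as abundant as the members.

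Most of that variation was shared. Over the 24 male libraries, 82 members had a Pearson r above 0.8 with the profile of the median member, the median r was 0.833, and the first principal component held 52.5% of the members' variance. These are descriptions, since libraries of a group, their scaling to column totals and the drug groups are shared by all members. Another 14 members had a negative r, from -0.059 for WBGene00221780 down to -0.668 for WBGene00233104. All 14 were also negative in the 18 drug-treated males alone and without the 4 libraries with female-restricted counts, 13 were negative with TMM scaling, and 9 in the 6 untreated males alone. Of the 136 with a positive r, 134 were positive in drug-treated males, 134 in untreated males and 133 with TMM scaling. All of these libraries also took part in the split into 14 and 136, so part of this agreement was built in. The 14 included WBGene00223218 and WBGene00223871, ranks 2 and 4 by abundance, and WBGene00223402. In the untreated males alone, WBGene00223218 had a positive r of 0.46. Together the 14 took 0.698 to 1.70% of male counts, and the 136 took 3.58 to 6.65%.

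**Figure D3:**
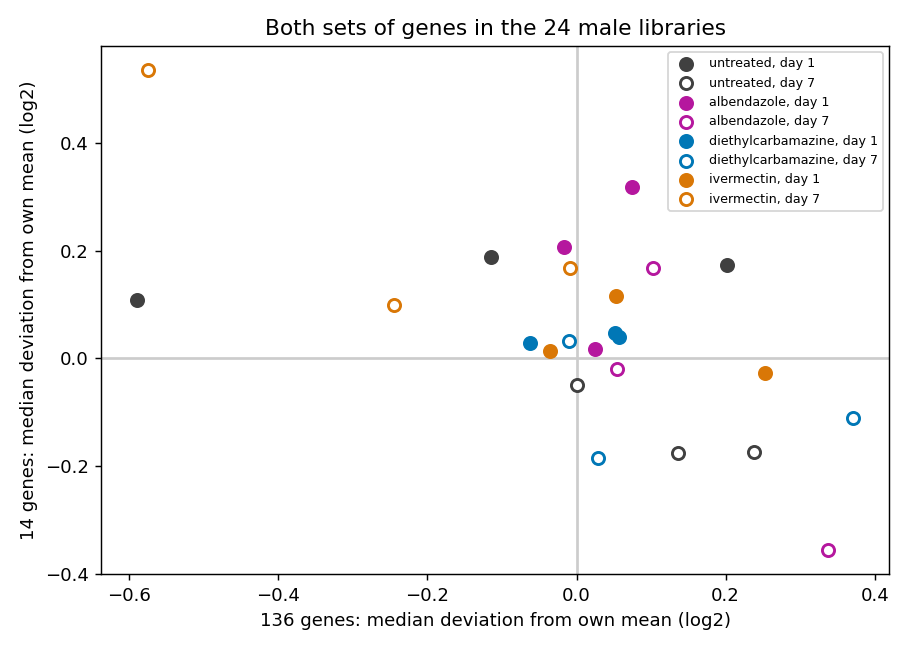
Median deviation from each gene's own mean (log2 CPM) of the 136 genes with a positive and the 14 with a negative correlation to the median member, 1 point for each of the 24 male libraries, coloured by treatment, filled for day 1 and open for day 7. Ivermectin day 7 replicate 3 stands at the upper left, with -0.58 and 0.54, and albendazole day 7 replicate 3 at the lower right, with 0.34 and -0.36. CPM was scaled to column totals, without TMM factors.

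The sets parted most in ivermectin day 7 replicate 3, and next in untreated day 1 replicate 2 and albendazole day 7 replicate 3. In ivermectin day 7 replicate 3 the 136 genes stood 0.58 below and the 14 genes 0.54 above their own means on the log2 scale. All deviations in this paragraph used column totals. The TMM factors of this library and of albendazole day 7 replicate 3 were 0.787 and 1.13, the lowest and highest of all males. Such a factor moves both sets of a library by the same amount, so the size of each deviation depends on the scaling. In the same round of day 7 the direction was the opposite in the other treatments. The 136 were 0.34 above and the 14 were 0.36 below in albendazole, 0.37 above and 0.11 below in diethylcarbamazine, and 0.14 above and 0.18 below in untreated males. The correlation that split the sets used these same libraries, so this is a description and no test. Untreated day 1 replicate 2 parted in the direction of the ivermectin library, with the 136 genes 0.59 below their means and the 14 genes 0.11 above. It was the lowest male library for 57 of the 136 genes, and ivermectin day 7 replicate 3 was the lowest for 49.

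WBGene00223402 showed the contrast most clearly, and it and the members named in this paragraph beyond the 5 most abundant were picked after their values were seen unless they are the most or least variable. On day 7, WBGene00223402 was at 120.1 CPM in untreated, 99.1 CPM in albendazole, 114.5 CPM in diethylcarbamazine and 3229 CPM in ivermectin males of replicate 3. Its other 20 male values ran from 291.4 to 1299 CPM, so it was lowest in 3 libraries of that round and highest in the fourth. WBGene00223218 had 1897, 1257, 1809 and 4936 CPM in the same 4 libraries, and WBGene00227280 had 193.7, 114.4, 151.7 and 717.9 CPM. WBGene00231108 had 313.2, 197.9, 267.8 and 1031 CPM. In each of these genes ivermectin replicate 3 was the highest of all male libraries, as it was for 8 of the 14.

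A second pattern joined WBGene00223871 and WBGene00225529, both among the 14. WBGene00225529 was lowest in ivermectin day 1 replicate 2, at 35.4 CPM, and was 93.9 CPM in untreated day 7 replicate 1, 116.8 CPM in albendazole day 7 replicate 1, 124.3 CPM in diethylcarbamazine day 1 replicate 2 and 195.5 CPM in diethylcarbamazine day 7 replicate 1. The other 19 male libraries lay between 269.2 and 499.8 CPM, with a median of 352.9 CPM. In the same 5 libraries WBGene00223871 was at 607.8, 958.9, 1352, 1263 and 1641 CPM, while the other 19 had a median of 2420 CPM and a lowest value of 1545 CPM. The 5 libraries came from untreated males and all 3 drugs and from both days, so these genes were not low in a single treatment. By round, however, all lay in replicate 1 of day 7 or replicate 2 of day 1. The remaining libraries of those rounds had 278.9 CPM (ivermectin day 7), 382.6 CPM (untreated day 1) and 342.7 CPM (albendazole day 1) of WBGene00225529. Ivermectin day 1 replicate 2 and diethylcarbamazine day 7 replicate 1 were also among the 4 males with female-restricted counts. Of the 5, 4 were also the lowest for WBGene00223871. The pair was chosen after its values were seen and has no test.

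Replicate numbers mark rounds in which every treatment was carried out, per the series' text, and rounds were tested within each day. On day 1 the quasi-likelihood F test called 8 of 150 members in males, against 8.69% of 10347 genes. The share was thus near that of all genes. In all 8 round 3 was lower than rounds 1 and 2 by the fitted differences. Of all 150 members, called or not, 51 had round 3 below both other rounds and 37 had it above both. Among all genes 42.1% had it below both, so the direction of the 8 is not that of the members as a whole. For WBGene00221355, round 3 had 91.9 CPM in untreated, 60.6 CPM in albendazole, 154.6 CPM in diethylcarbamazine and 56.9 CPM in ivermectin males, a mean of 91.0 ± 45.2 CPM (SD, n = 4). Round 1 had a mean of 206.5 ± 9.54 CPM and round 2 of 236 ± 30.5 CPM, and no library of these rounds overlapped round 3. Its fitted log2 difference of round 3 from round 1 was -1.28, with a Benjamini-Hochberg adjusted p of 0.0131 in edgeR. WBGene00230642 fell from 831 ± 15.4 CPM in round 1 and 768 ± 97.1 CPM in round 2 to 447 ± 170.2 CPM in round 3, again with no overlap (log2 difference from round 1 of -0.94, adjusted p of 0.0298). Without albendazole replicate 3, or without ivermectin replicate 3, 0 members were called, and with column totals alone 2 were. The share of all genes called in those fits is not given here, so these counts are not read as particular to the members. On day 7, 0 of 150 members and 0% of 10347 genes were called, with 3 members and 651 genes at an unadjusted p under 0.05 and 0 members called by DESeq2. Without ivermectin day 7 replicate 3, 7 members were called, given without the share of all genes in that fit.

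In females the members were present as traces. Their sum was 0.0353 to 0.163% of counts over the 24 female libraries, and in untreated females it was 1.14% of the sum in untreated males. That mean includes untreated day 7 replicate 2 at 2.56%, while the other untreated females were at 0.607 to 1.01%. The means by member below include that library too. The rule used these untreated values, and the levels by member are given as a description. The mean in untreated females was between 0.192 and 5.41% of the mean in untreated males, with a median of 0.901%, and 81 members were under 1%. The highest were WBGene00230056 and WBGene00225232. WBGene00225232 ran from 4.59 to 12.3 CPM in the 6 untreated females (median 10.3 CPM) and from 134.1 to 208.9 CPM in untreated males. The lowest was WBGene00225529, with 0 reads in 20 of the 24 female libraries, which allows up to 3 reads in each, or 0.0793 to 1.42 CPM over the depths of the 24 libraries. WBGene00221780 was next, at 0.12 to 2.19 CPM in untreated females against 228.4 to 298.8 CPM in untreated males. Its lowest female value was under 3 reads, which make at least 0.178 CPM in any untreated female library. The order among the lowest members is therefore uncertain.

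The trace was even across most female libraries and high in a pair of them. As a percent of its mean in untreated males, the median member was between 0.288 and 0.704% in 22 libraries, 1.67% in diethylcarbamazine day 1 replicate 1 and 2.47% in untreated day 7 replicate 2. In untreated females it was 0.633%, 0.671% and 0.346% on day 1 and 0.622%, 2.47% and 0.704% on day 7. In albendazole females it was 0.633%, 0.615% and 0.611% on day 1 and 0.623%, 0.638% and 0.676% on day 7, so all 6 lay close together. In diethylcarbamazine females it was 1.67%, 0.552% and 0.288% on day 1 and 0.648%, 0.662% and 0.640% on day 7.
In ivermectin females it was 0.498%, 0.639% and 0.418% on day 1 and 0.621%, 0.637% and 0.677% on day 7. Apart from untreated replicate 2, the day 7 values of all treatments thus overlapped.

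**Figure D4:**
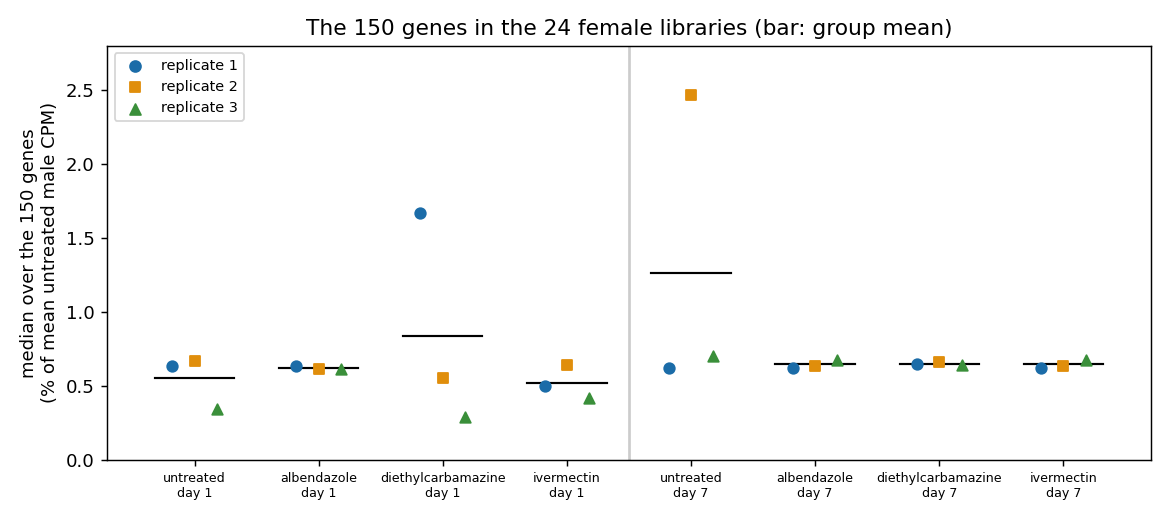
Median over the 150 genes of the level in each of the 24 female libraries, as a percent of each gene's mean CPM in untreated males, with replicate number by symbol and the group mean as a bar. Untreated day 7 replicate 2, at 2.47%, and diethylcarbamazine day 1 replicate 1, at 1.67%, stand above the 22 others, and replicate 3 of day 1 is low in untreated, diethylcarbamazine and ivermectin females.

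In both high libraries the excess was spread over nearly all members. In untreated day 7 replicate 2 each of the 150 members was above the median of the other day 7 females, by 0.482 to 3.26% of its mean in untreated males. In diethylcarbamazine day 1 replicate 1, 149 of 150 were above the other day 1 females, with an excess of -0.854 to 4.15%. Of all genes with a mean of at least 1 CPM in untreated females, 57.8% and 51.8% lay above the same medians in these libraries. The 136 genes that varied together in males and the other 14 had median excesses of 1.71 and 1.17% in the first library and 1.10 and 1.08% in the second. For 112 members both libraries were above every one of the 22 others. The other 341 male-restricted genes, which are not members, were high in the same libraries, with median levels of 2.83% and 2.01% against 0.278 to 0.914% in the 22 others. WBGene00220914 had 75.9 CPM in the first library, 58.4 CPM in the second and 0.47 to 3.68 CPM in the rest. WBGene00228108 had 48.2, 26.2 and 0.15 to 1.43 CPM in that order. WBGene00225529, with 42 reads in the first and 39 in the second, had at most 2 reads in any of the other 22. The source of these reads was not tested.

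**Figure D5:**
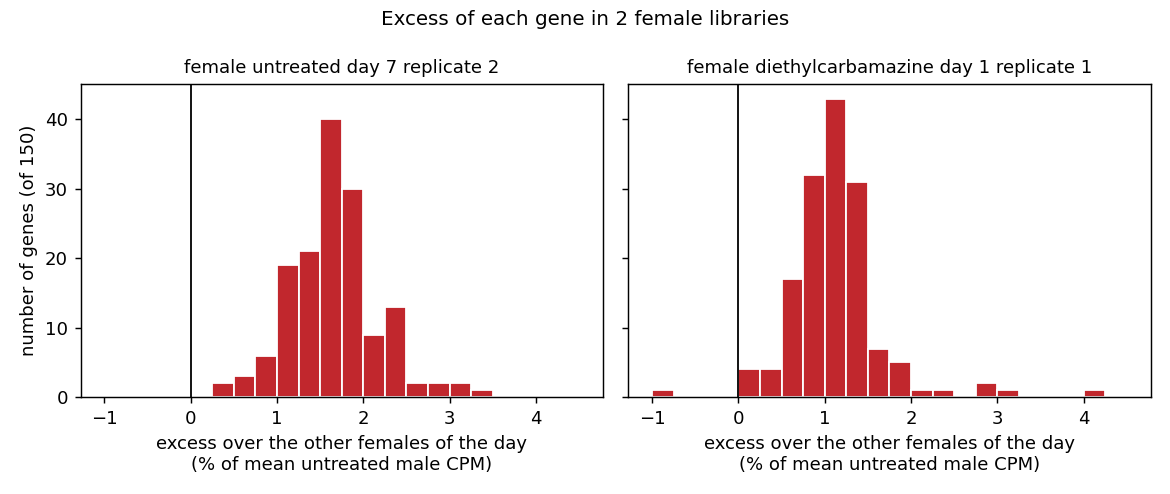
Number of the 150 genes by their excess in the named female library over the median of the other females of its day, as a percent of each gene's mean CPM in untreated males. In untreated day 7 replicate 2 all 150 lie above 0, and in diethylcarbamazine day 1 replicate 1 all but 1 do.

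Each of these libraries carried most of the members' difference in the female comparisons that it entered. Of the 150 members, 128 passed the filter on low counts in females. In each of the 6 drug comparisons edgeR called 0 of 128 members and 0% of 10264 genes, and DESeq2 called 0 members. At an unadjusted p under 0.05, the members numbered 0, 16 and 1 in albendazole, diethylcarbamazine and ivermectin on day 1 and 34, 30 and 37 on day 7, and all genes 83, 204, 92, 76, 104 and 99. Untreated females of these comparisons also took part in the choice of members. On day 7 the members' median log2 difference from untreated females was -0.69, -0.72 and -0.75, with 123 of 128 members below 0 for each drug. The 3 comparisons share their untreated libraries. When untreated day 7 replicate 2 was left out, they became -0.0086, -0.10 and -0.060, and 65, 81 and 77 of 128 members lay below 0. On day 1 the median under diethylcarbamazine was 0.48 with 118 of 128 members above 0, and without replicate 1 of that group it was -0.048 with 58 above 0. The medians under albendazole and ivermectin on day 1 were 0.0020 and -0.033, with 65 and 56 of 128 above 0. Between untreated females of day 7 and day 1 the median was 0.74, with 116 of 128 above 0, and it was 0.024 without day 7 replicate 2. A fit with a replicate block compares the fitted round 1 levels of both days, which is another contrast. Its median was 0.30, with 23 of 128 below 0. Without the block, the comparison of untreated days called 0 of 128 members and 0% of 10264 genes. It had 36 members and 288 genes at an unadjusted p under 0.05, and DESeq2 called 0 members. Scaled by column totals alone, the median of all genes moved to 0.17 under albendazole on day 1 and to 0.21 between the untreated days, and the members' medians to 0.19 and 0.96. In simulated data of the ivermectin day 1 comparison, a 2-fold change was called in 42% and a 4-fold change in 87% of changed genes. The changed genes were drawn from all genes above a minimum mean count, not from the members. In females the members had a median biological coefficient of variation of 0.395, against 0.230 for all genes. These rates are therefore not the sensitivity for members.

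More genes differed between the rounds of day 1 in females than in any other round comparison. The test called 43 of 128 members, against 69.9% of 10264 genes. In females the median biological coefficient of variation within groups was 0.395 for the members and 0.230 for all genes. The shares called were thus not measured with equal sensitivity, and the smaller share of members is not read as a trait of them. The direction was not uniform. By the fitted differences, which use TMM scaling, round 3 was below both other rounds in 19 of the 43 and above both in 13. By mean CPM, which uses column totals, some of these 13 were not highest in round 3. WBGene00229929 had a fitted log2 difference of round 3 from round 1 of 0.36. Its mean CPM was 3.51 in round 3 and 4.02 in round 1. Of the 14 genes described above, 10 were tested and 5 called. Round 3 was above both other rounds in 4 of these 5 by the fitted differences. WBGene00223218, ranked second by abundance in males, had 46.4 CPM in untreated, 48.0 CPM in diethylcarbamazine and 54.5 CPM in ivermectin females of round 3 but 18.3 CPM in albendazole females of that round. Its other 8 day 1 values lay between 15.3 and 48.3 CPM, the highest being diethylcarbamazine replicate 1. In the same 3 round 3 libraries the members' median level was 0.346%, 0.288% and 0.418%, the lowest of all females. Their TMM factors were 0.569 to 0.682 against 1.02 to 1.12 in the other 21 female libraries, and their 100 most counted genes held 19.7 to 20.8% of counts against 12.1 to 14.6%. The part of these library differences in the round differences of members was not tested.

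Members whose rounds did not overlap on day 1 were found on either side. WBGene00269353 had 4.22, 3.56, 5.44 and 1.84 CPM in untreated, albendazole, diethylcarbamazine and ivermectin females of round 1, 0.49, 0.85, 1.09 and 0.82 CPM in round 2 and 0.46, 0.53, 0.59 and 1.03 CPM in round 3. All of its round 1 values were above the others. WBGene00221809 likewise had a mean of 7.43 ± 2.41 CPM in round 1 and of 2.60 ± 0.620 and 2.07 ± 1.09 CPM in rounds 2 and 3 (SD, n = 4 each). WBGene00229929 was lowest in round 2, at 2.03 ± 0.178 CPM, against 4.02 ± 1.35 CPM in round 1 and 3.51 ± 0.794 CPM in round 3. On day 7, 1 of 128 members was called, against 8.59% of genes. This was WBGene00227292, at 2.86 ± 0.741 CPM in round 1, 6.45 ± 1.30 CPM in round 2 and 6.95 ± 1.12 CPM in round 3, with no overlap of round 1 with the others (log2 difference of round 2 from round 1 of 1.10, edgeR adjusted p of 0.0065). It was not called with column totals alone, where 0 members were, given without the share of all genes in that fit.

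In microfilariae the members were also present as traces, in a range that overlapped the females. Their sum was 0.0389 to 0.0777% of counts in the 20 microfilaria libraries, and the median member was at 0.246 to 1.15% of its untreated male mean. The highest value was that of ivermectin day 1 replicate 1, with replicate 2 of that group next at 0.865%, while replicate 3 of the same group was at 0.319%. Replicate 3 of day 1 was between 0.246 and 0.319% in all 4 treatments. Ivermectin day 1 replicates 1 and 2 were also the highest microfilariae for the other 341 male-restricted genes, at medians of 2.58% and 1.89%. They were highest for the 107 female-restricted genes too, at medians of 1.71% and 1.47% of the untreated female means. The higher level was thus not particular to the members or to male-restricted genes. No test was run on microfilariae alone.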

How the data were processed

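The authors deposited a table of unnormalised whole-number read counts, with genes as rows and libraries as columns, per the file headers. The submitters' processing notes name TopHat2 2.0.14 and HTSeq 0.6.1p1, without roles. The build and annotation are not given in the sources used here. Libraries came from a strand-specific kit, per the labels' protocols. Reads of near-identical gene copies may be split between them, which could not be examined.

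CPM used column totals. Tests used R 4.3.3 and edgeR 4.0.16 (quasi-likelihood, two-sided, TMM scaling, Benjamini-Hochberg over all genes tested, threshold 0.05), and DESeq2 1.42.0 as the alternative. Counts of members called by DESeq2 are given without the share of all genes it called. All 24 libraries of a sex entered 1 fit of group means, with genes kept by filterByExpr at a minimum count of 10 and total of 15. Round tests added the replicate number within each day. The 51 drug-treated libraries had a fit of their own. Scripts were tested on simulated counts with 200 changed genes. Correlations used log2(CPM + 1). Replicates are separate rounds, per the series' text. Over 36 pairs of same-numbered libraries, deviations from group means correlated at -0.412 to 0.882 (median 0.294), and 29 pairs were above 0.1.

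The genes, lists and tests were chosen with earlier results of these data known. Named by rule were the 5 members with the highest male mean, those at the limits of the rule, the least and most variable in males, the 2 highest and 2 lowest in females relative to males, and, per comparison, up to 2 per direction of called members whose groups do not overlap. Alternatives changed the scaling, filter, tool, replicate block, fold limit, number of members and libraries. No sequence is shown, since the tables used hold none.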

Additional observations from a re-analysis of the deposited data

Results flagged for a closer look

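In each of the 12 sets of 5 or 6 libraries of a stage and treatment over both days, the gap of the highest or lowest library to its neighbour was compared with the range of the set. This was done for 2 measures, the members' share of counts and the level of the median member, which makes 24 tests (critical ratios of 0.710 for 5 and 0.625 for 6 libraries). Chance marks about 1 in 20 such tests, and both measures come from the same libraries. Among untreated females, day 7 replicate 2 stood apart, with 0.163% of counts in the members and a median member at 2.47% of its untreated male mean. Among diethylcarbamazine females, day 1 replicate 1 stood apart, with 0.122% and 1.67%. Among males, diethylcarbamazine day 7 replicate 3 was high, at 7.46% of counts and a median member at 127% of the untreated mean, and so was albendazole day 7 replicate 3, at a median of 123.6%. Among diethylcarbamazine microfilariae, day 1 replicate 3 was low, at 0.0411% of counts. The causes were not tested.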

How the results depend on the processing

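With a replicate block, 0 members were called in each of the 14 drug and day comparisons of adults and 150 in both comparisons of drug-treated stages, so the block changed no call. Between untreated days and between stages, the blocked fit compares fitted round 1 levels, which is another contrast. Its median between untreated days in females was 0.30, against 0.74 without the block. Of the alternatives, 334 left a result within its limits and 28 moved it. For rounds in females, column totals alone gave 66 members on day 1 and 0 on day 7, no filter on low counts gave 4 on day 7, and DESeq2 gave 6 on day 7. For rounds in males on day 1, DESeq2 gave 13 and column totals alone 2. With single libraries left out, members called ran from 30 to 73 for female rounds on day 1, highest without albendazole replicate 3, and from 1 to 5 on day 7. They ran from 0 to 12 and from 0 to 7 for male rounds on days 1 and 7, the 12 without ivermectin day 1 replicate 2. For males on day 1 they ran from 0 to 9 under albendazole, 0 to 15 under diethylcarbamazine and 0 to 26 under ivermectin, and from 0 to 29 between untreated days, each highest without untreated day 1 replicate 1. The level in females was 2.05% of that in males at a fold limit of 8, against 1.14%. By the rule, a lower limit admits genes with higher levels in females or microfilariae, and 129 of these 150 genes were members. The share of male counts was 5.03% without the 5 most abundant members and 4.04% for the 50 most abundant, against 6.39%, by construction since fewer genes were summed. Counts of members under these alternatives are given without the share of all genes, so they are not read as particular to the members. The cause of the other changes was not tested. Groups of 3 libraries limit what could be called, and traces of under 3 reads per library were not measurable in females.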
